A study of Mus musculus with 2 samples.

Results

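Respiratory complex I is the NADH dehydrogenase of the inner mitochondrial membrane. Its nuclear genes carry the prefix Nduf, and every array probe whose deposited gene name starts with Nduf was taken, whatever its measured value. The gene set itself was chosen with earlier results of these data known. The name rule gave 46 genes with 70 probes, of 16698 genes measured in the whole series. All 46 genes were well above background in all 4 channels. Of the 70 probes, 66 were kept, and the 4 probes left out as too dim belonged to Ndufv2, Ndufs4, Ndufs5 and Ndufab1, each of which kept another probe. RefSeq gives 45 genes the same name, while Ndufb11b is listed there as 1700029P11Rik. The genes lie on 17 chromosomes.

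The HMPA group were male CD-1 mice fed an AIN-93G diet with 0.2% adenine (2 g per kg) and 2% HMPA by weight for 1 week. HMPA, a hydroxy-methoxyphenyl derivative of propionic acid, belongs to the phenolic acids. The adenine group received that adenine diet without HMPA for the same week, so both groups ate adenine, and no mouse on an adenine-free diet was on the arrays. An oxidation product of dietary adenine crystallises in the renal tubules, and the diet is a standard model of chronic kidney disease. Per the treatment protocol the diets began at 7 weeks of age, whereas the sample titles give 12 weeks and name 5 mice without saying whether they were pooled. Whole kidney RNA of the 2 groups was hybridised together on 2 arrays with the dyes swapped: HMPA carried Cy5 and adenine Cy3 on array 1, and the reverse on array 2. No label names separate animals for the arrays, so they count as 1 RNA sample per group measured with both dye orientations. No p-value can be given, and differences between animals were not measurable.

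Complex I takes electrons from NADH, passes them through a flavin and a chain of iron-sulfur clusters to ubiquinone, and pumps protons across the membrane. Its catalytic core is made of 7 nuclear-encoded subunits in the peripheral arm and 7 subunits of the membrane arm encoded by mitochondrial DNA. Around this core sit accessory subunits, and separate assembly factors join the modules and then leave. In the kidney, tubular cells, above all those of the proximal tubule, depend on mitochondrial respiration to drive reabsorption.

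Every ratio here is the log2 of HMPA over adenine alone, averaged over the 2 arrays, and ± gives how far either array lay from that mean. With dye swap arrays this spread covers dye and hybridisation error only. A gene met the 2-fold rule with a mean difference of at least 2-fold and at least 1.5-fold the same way on each array. It met the 1.5-fold rule with at least 1.5-fold on average and a log2 ratio of at least 0.32 the same way on each array. These are rules of size, not tests. Where groups are said not to overlap, 2 readings of 1 RNA sample per group are compared. The share of all genes without overlap is not given here, so this describes the readings only.

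Complex I transcripts were higher in the HMPA kidney than in the adenine kidney across nearly the whole set. The median log2 ratio of the 46 genes was 0.63, with 0.73 on array 1 and 0.52 on array 2. The median of all 16698 genes was -0.037, with -0.036 and -0.04 on the arrays. Of the 46 genes, 45 lay above the median of all genes and 41 above their upper quartile of 0.27. A total of 42 complex I genes (91.3%) had a ratio above 0 on both arrays, against 35.9% of all genes. The other 4, Ndufa3, Ndufb1, Ndufa7 and Ndufb11b, were above 0 on 1 array and below 0 on the other.

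The size of the difference was moderate. By the 1.5-fold rule, 24 of 46 genes (52.2%) were higher with HMPA, against 13.5% of all genes, and 0 were lower, against 16.2%. By the 2-fold rule, 6 of 46 (13%) were higher, against 6.64% of all genes, and 0 were lower, against 7.72%. The 6 were Ndufs1, Ndufaf6, Ndufb5, Ndufa10, Ndufs8 and Ndufab1. On 1 array alone the rule asks only for 2-fold on that array. The count of higher genes was then 11 on array 1 and 6 on array 2. Of the 6 genes named, 4 were among those of array 2. The shares of all genes were 6.91% on array 1 alone and 7.5% on array 2 alone. With median centring in place of loess it was 3 (Ndufs1, Ndufa10 and Ndufaf6), near the 4.49% of all genes that then met the rule as higher, and the median of all genes moved to -0.22. Measured from the median of all genes, the complex I median was 0.67 higher under loess and 0.79 higher under median centring. Over all genes, 46.2% of the differences that met the 2-fold rule were higher under loess and 27.5% under median centring.

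**Figure D1:**
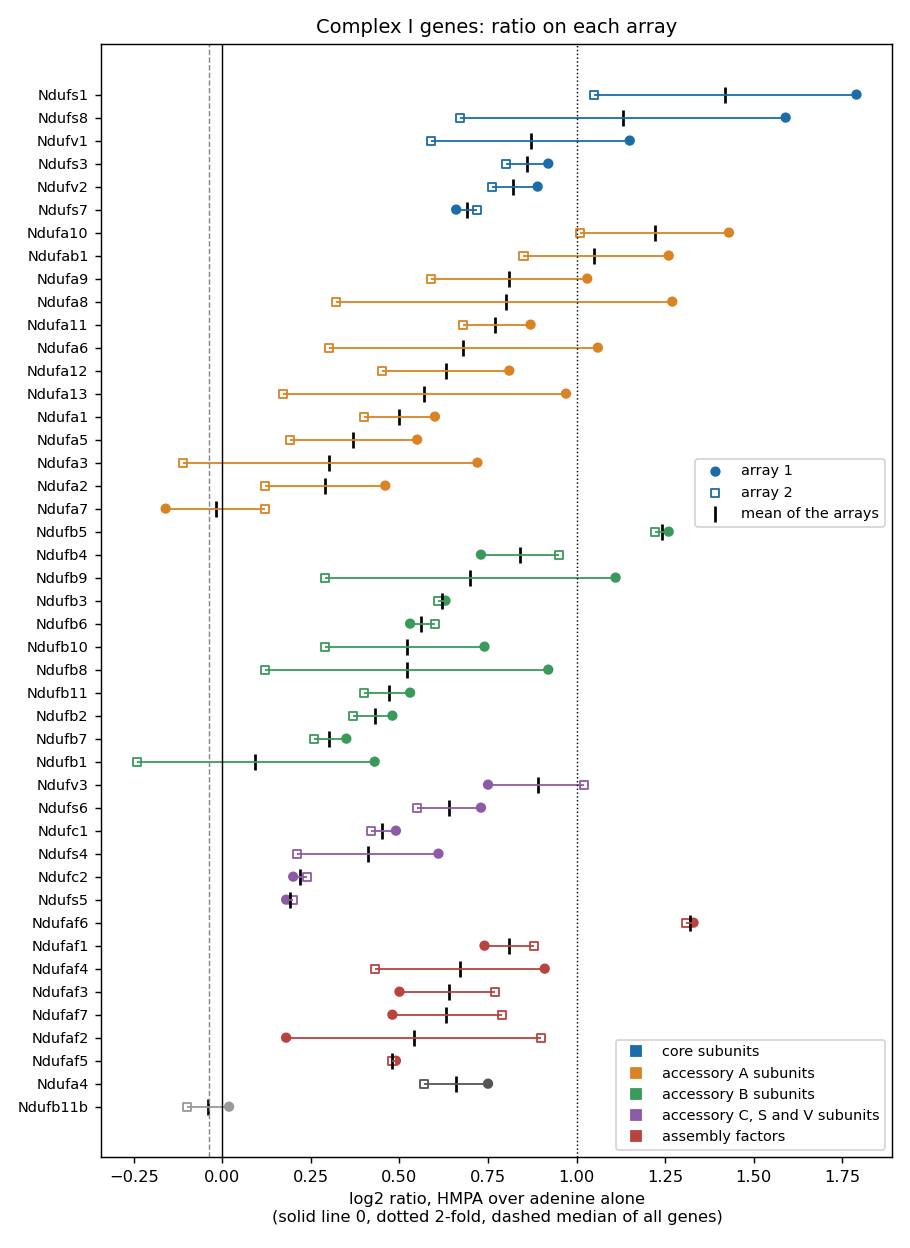
Log2 ratio of HMPA over adenine alone for 45 complex I genes (rows), on array 1 (filled circles), on array 2 (open squares) and as the mean (black ticks), grouped by role. All but Ndufa7 and Ndufb11b have a mean above 0, and the core subunits lie between 0.69 and 1.42.

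The 7 nuclear core subunits were all higher by the 1.5-fold rule, against 13.5% of all genes. Their median was 0.87 (range 0.69 to 1.42). Some probes of these core subunits span an exon boundary and so lie in spliced transcript. The 60 bases of such a probe cover a longer stretch of the genome in the deposited positions. Probes of this kind for 3 core subunits are shown because the ratios below rest on these bases. Positions are those of the files (mm9, minus strand for each), and no annotation of that build was used.
Ndufs8, chr19:3911200-3911568: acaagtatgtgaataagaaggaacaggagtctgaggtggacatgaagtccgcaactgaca
Ndufv1, chr19:4007616-4007779: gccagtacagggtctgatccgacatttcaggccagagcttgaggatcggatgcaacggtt
Ndufv2, chr17:66438669-66438810: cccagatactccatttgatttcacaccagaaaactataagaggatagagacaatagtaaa

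Ndufs1, the largest subunit and a carrier of several iron-sulfur clusters next to the flavin site, had the highest ratio of all 46 genes. Its normalised probe intensity was 12168 on array 1 and 10352 on array 2 in the HMPA kidney, against 3529.9 and 4999 in the adenine kidney. Both HMPA values lay above both adenine values, and the ratio was 1.42 ± 0.37 (2.67-fold). Ndufv1, which binds NADH and the flavin, had intensities of 15687 and 13343 with HMPA and 7057 and 8839 with adenine alone (0.87 ± 0.28). Ndufv2, its iron-sulfur partner in the same module, had 3681 and 3569.6 with HMPA and 1983 and 2113 with adenine alone (0.82 ± 0.068). The groups did not overlap for either gene, and the arrays lay closer together for Ndufv2.

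Other core subunits form the arm that leads electrons to ubiquinone. Ndufs8, which holds iron-sulfur clusters of this chain, had intensities of 2815 and 2105 with HMPA and 937 and 1326 with adenine alone. Its ratio of 1.13 ± 0.46 met the 2-fold rule, but was 1.59 on array 1 and 0.67 on array 2. Ndufs3, a scaffold of this arm that forms early in assembly, had 11552 and 10947 with HMPA and 6117 and 6302 with adenine alone (0.86 ± 0.06). Ndufs7, which carries the last cluster before ubiquinone, had 10781 and 13211 with HMPA and 6823 and 8021 with adenine alone, the lowest core ratio (0.69 ± 0.03). For each of these core subunits both HMPA intensities were above both adenine intensities.

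**Figure D2:**
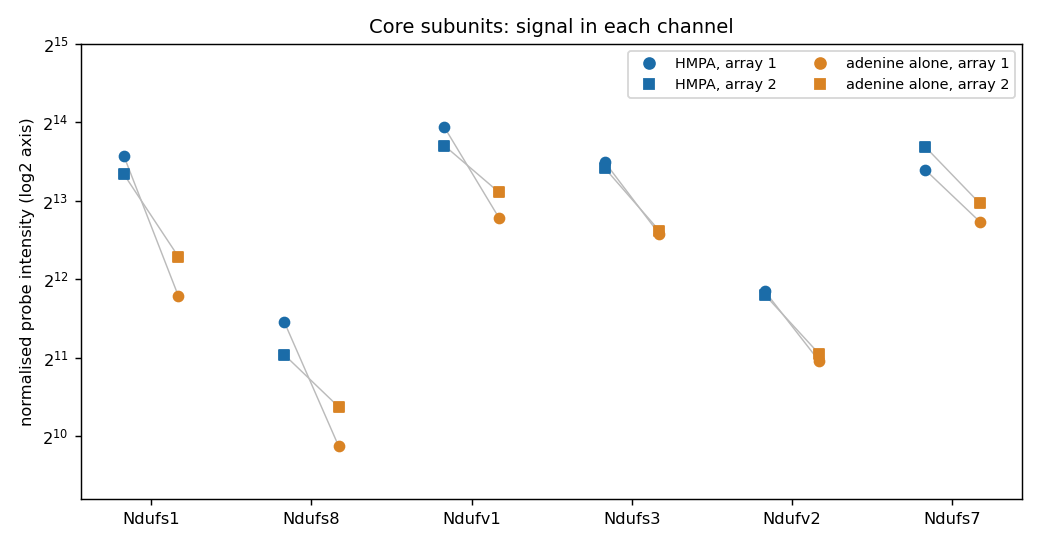
Normalised probe intensity (log2 axis) of 6 nuclear core subunits, HMPA in blue to the left and adenine alone in orange to the right, with circles for array 1, squares for array 2 and a line joining the channels of 1 array. For every gene and array the HMPA point lies above the adenine point, with the steepest line for Ndufs1 on array 1 (12168 with HMPA and 3529.9 with adenine alone); heights are not comparable between probes.

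In each group of accessory subunits the lowest ratio lay below the lowest core ratio. The 13 genes of the Ndufa group, Ndufab1 included and Ndufa4 left out, had a median of 0.63 (range -0.018 to 1.22). Of these, 6 (46.2%) met the 1.5-fold rule and 2 (15.4%) the 2-fold rule as higher, against 13.5% and 6.64% of all genes. Ndufa10, a subunit with a nucleoside kinase fold, is shown by its exon-spanning probe since it led the group.
Ndufa10, chr1:94361039-94363996: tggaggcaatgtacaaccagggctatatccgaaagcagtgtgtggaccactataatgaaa

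Ndufa10 intensities were 4362 and 3846 in the HMPA kidney and 1621 and 1911 in the adenine kidney, a ratio of 1.22 ± 0.21 (2.33-fold). Ndufab1, the mitochondrial acyl carrier protein, which also serves fatty acid synthesis, had 11045 and 10453 with HMPA and 4613 and 5799 with adenine alone (1.05 ± 0.20). Both genes differed in the same direction on each array, without overlap of the groups. At the low end, Ndufa7 had 8112 and 9464 with HMPA and 9048 and 8702 with adenine alone, and these overlapped (-0.018 ± 0.14). Ndufa2 had 16645 and 14411 with HMPA and 12131 and 13252 with adenine alone (0.29 ± 0.17). Ndufa3, a small membrane subunit, had 5689.8 and 3909 with HMPA and 3461 and 4225 with adenine alone, so that array 1 gave 0.72 and array 2 -0.11. The remaining 8 genes of the group, Ndufa1, Ndufa5, Ndufa6, Ndufa8, Ndufa9, Ndufa11, Ndufa12 and Ndufa13, were above 0 on both arrays.

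The 11 genes of the Ndufb group belong to the membrane arm and had a median of 0.52 (range 0.093 to 1.24). Ndufb5 stood at the top with intensities of 1807 and 1950.2 with HMPA and 756 and 838 with adenine alone. Its ratio of 1.24 ± 0.019 (2.36-fold) was nearly the same on both arrays. Ndufb7 had 16150.3 and 15679 with HMPA and 12698 and 13079.9 with adenine alone, a small difference without overlap (0.30 ± 0.043). Ndufb1 had 5458 and 4140.5 with HMPA and 4048 and 4906 with adenine alone, and its direction differed between the arrays (0.093 ± 0.34). Its mean was below 0 with median centring. By the 1.5-fold rule 3 of the 11 genes (27.3%) were higher, against 13.5% of all genes. On both arrays 10 of 11 (90.9%) were above 0, against 35.9%.

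Among the 6 accessory genes of the C, S and V groups the median was 0.43 (range 0.19 to 0.89). None met the 2-fold rule, which 6.64% of all genes met as higher. Ndufv3, a subunit at the tip of the NADH-binding module, had 5763 and 6947 with HMPA and 3423 and 3426 with adenine alone (0.89 ± 0.13). Ndufs5, on the intermembrane face, had 20831 and 21667 with HMPA and 18358 and 18837 with adenine alone (0.19 ± 0.0098). Ndufc2, in the membrane arm, had 9531 and 9630.4 with HMPA and 8299 and 8176 with adenine alone (0.22 ± 0.018). The differences of Ndufs5 and Ndufc2 were small, with no overlap and little distance between the arrays. Ndufs4, Ndufs6 and Ndufc1 lay between Ndufc2 and Ndufv3.

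Genes for assembly factors with the Ndufaf prefix, which are not part of the finished enzyme, were higher as well. Their 7 ratios had a median of 0.64 (range 0.48 to 1.32). All 7 were above 0 on both arrays, against 35.9% of all genes. Of the 7, 5 (71.4%) met the 1.5-fold rule as higher, against 13.5%. Ndufaf6, needed in human cells for early assembly, had intensities of 987 and 1060.3 in the HMPA kidney and 392 and 428 in the adenine kidney. This was the second highest ratio of the 46, 1.32 ± 0.011 (2.5-fold). The other 6 include Ndufaf1, which works with Acad9 and Ecsit on the membrane arm, Ndufaf3 and Ndufaf4, which act together early in assembly, and Ndufaf7, a methyltransferase. Ndufaf2 and Ndufaf5 had the lowest ratios of the group.

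A pair of genes carry the prefix but stand apart by role or name. Ndufa4 was first described in complex I and is now assigned to cytochrome c oxidase (complex IV). Its intensities were 21265 and 22678 with HMPA and 12637 and 15255 with adenine alone, a ratio of 0.66 ± 0.089 near the middle of the 46. Ndufb11b had 85.6 and 83.2 with HMPA and 84.5 and 89.3 with adenine alone, a ratio of -0.041 ± 0.06. These intensities include the offset of 50 added to every spot, and small differences at such levels are compressed. None of the probe names read here was Ndufa4l2, a relative of Ndufa4, which was therefore not analysed.

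Several probes were kept for 13 genes, and for 12 of them all probes had ratios of the same sign. The exception was Ndufa7, whose exon-spanning probe gave 0.45 on each array while the brighter probe gave -0.018. The mean over both probes was 0.21. For Ndufab1 the kept probes gave 1.05 (the brightest, used above), 1.30, 1.13 and 0.13, the last from a dim probe with intensities of 81.7 and 77.6 with HMPA and 67.2 and 79 with adenine alone. With the mean over all kept probes Ndufab1 no longer met the 2-fold rule. For Ndufa12 a pair of probes that overlap by all but 20 bases gave 0.87 and 1.09, and the brightest probe, downstream of them, gave 0.63. The overlapping probes and the Ndufa7 probe are printed so that the bases behind these differences can be compared (mm9, plus strand).
Ndufa7, chr17:33961595-33962574: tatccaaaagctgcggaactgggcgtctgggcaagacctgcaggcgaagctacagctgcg
Ndufa12 (0.87), chr10:93662740-93666054: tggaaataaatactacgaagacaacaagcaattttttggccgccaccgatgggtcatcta
Ndufa12 (1.09), chr10:93662720-93666034: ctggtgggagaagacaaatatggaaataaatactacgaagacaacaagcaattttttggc

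**Figure D3:**
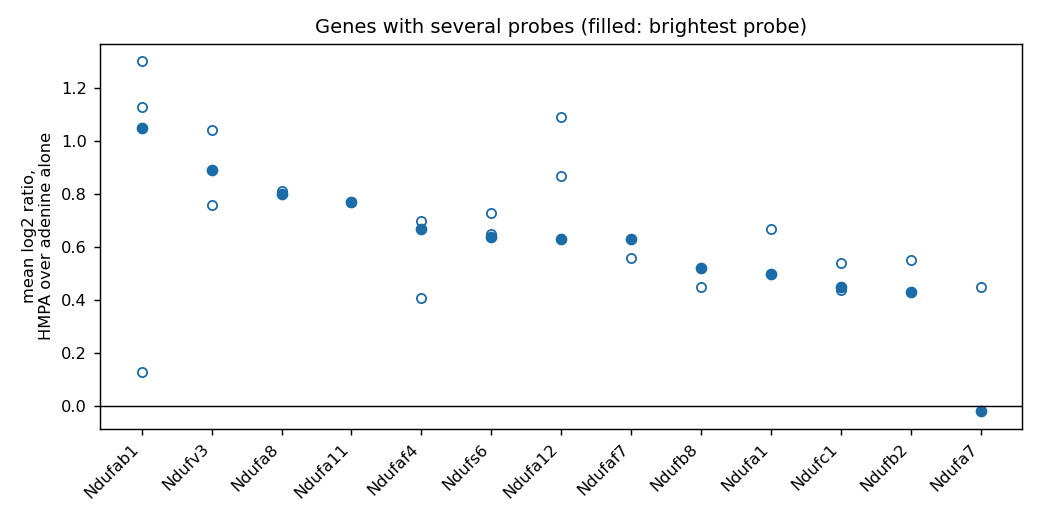
Mean log2 ratio of HMPA over adenine alone for every kept probe of the 13 complex I genes with more than 1, with the brightest probe filled and the others open. Probes of a gene lie on the same side of 0 except for Ndufa7 (-0.018 and 0.45), and the widest spread is that of Ndufab1 (0.13 to 1.30).

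The arrays differed in size more than in direction. Of the 46 genes, 34 had the higher ratio on array 1, where HMPA carried Cy5, and 12 on array 2. The median difference, array 1 minus array 2, was 0.15 for complex I genes and -0.0088 for all genes. It was 0.27 for the 32 complex I genes with a mean intensity of at least 12 on the log2 scale, and 0.087 for the 1175 such genes in all. The median log2 ratio of those 1175 bright genes was 0.0069. This spread about the mean had a median of 0.13 over complex I genes and 0.11 over all genes. It reached 0.25 in 11 complex I genes and was largest, at 0.47, for Ndufa8 (1.27 on array 1 and 0.32 on array 2), a gene singled out after its values were seen.

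**Figure D4:**
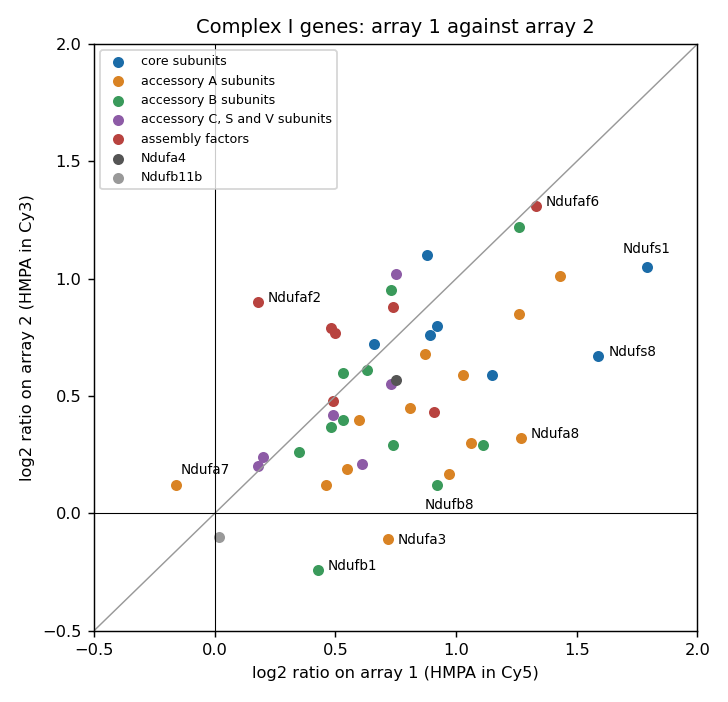
Log2 ratio of HMPA over adenine alone on array 2 (vertical) against array 1 (horizontal) for the 46 complex I genes, coloured by role, with the line of equal ratios. Below that line lie 34 genes, among them Ndufs1 (1.79 and 1.05) and Ndufa8 (1.27 and 0.32), and 42 genes lie above 0 on both axes.

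Other genes of complex I were read from lists outside the Nduf name. Of the 7 core subunits encoded by mitochondrial DNA only mt-Nd4 was measured here, with a ratio of 1.41 ± 0.17 (2.66-fold). Among 14 further complex I assembly genes, 13 were measured, and their median was 0.82. By the 2-fold rule 5 (38.5%) were higher and 0 lower, against 6.64% and 7.72% of all genes. Acad9, an acyl-CoA dehydrogenase relative that serves assembly, had 1.64 ± 0.13, and Tmem126b, of the same assembly complex, had 1.31 ± 0.11. Tmem70, a factor also known for ATP synthase assembly, had 1.17 ± 0.15, and Aifm1, an inner membrane flavoprotein, had 1.10 ± 0.31. The lowest of the 13 was Dmac1, an assembly factor of the distal membrane arm, at -0.20 ± 0.098.

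Ratios in the remaining respiratory chain were mixed in size. For 38 genes of complexes II to V the median was 0.58 (0.82 on array 1 and 0.53 on array 2). Of these, 18 (47.4%) met the 1.5-fold rule as higher and 5 (13.2%) the 2-fold rule, against 13.5% and 6.64% of all genes. By the 1.5-fold and 2-fold rules 0 were lower, against 16.2% and 7.72% of all genes. A total of 32 (84.2%) were above 0 on both arrays, against 35.9% of all genes. The other 6 were above 0 on 1 array only. The medians were 1.11 for 4 complex II genes, 0.76 for 9 complex III genes, 0.49 for 10 complex IV genes and 0.61 for 15 complex V genes. Sdha, the flavoprotein of complex II, had 1.66 ± 0.044. Cyc1, cytochrome c1 of complex III, had 1.33 ± 0.11, and Atp5mc3, a membrane ring subunit of complex V, had 1.16 ± 0.34. No difference between complex I and the other complexes was tested.

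General mitochondrial genes and regulators of mitochondrial gene expression spanned a wide range of ratios. Of 14 genes for other mitochondrial proteins, 3 met the 2-fold rule as higher and 0 as lower (median 0.58). Opa1, which fuses inner membranes, had 1.41 ± 0.14, Hspd1, a matrix chaperonin, had 1.09 ± 0.034, and Hspa9, a matrix chaperone, had 1.06 ± 0.0067. Cs, citrate synthase, often used as a measure of mitochondrial mass, had 0.036 ± 0.19. Of 15 regulators (median 0.52), 2 (13.3%) were higher and 0 lower by the 2-fold rule, against 6.64% and 7.72% of all genes. The 2 higher ones were Esrra, a nuclear receptor that drives respiratory genes (1.12 ± 0.021), and Tfb2m, a mitochondrial transcription factor (1.03 ± 0.072). Nrf1, a transcription factor for respiratory genes, had -0.002 ± 0.0093, and Ppargc1a, the coactivator of these factors, had 0.62 ± 0.092. The Nrf1 intensities were 105 and 99.9 with HMPA and 106 and 99.3 with adenine alone. They include the offset of 50 added to every spot, so its ratio and spread are compressed. Pprc1, a coactivator of the Ppargc1a family, had the lowest ratio of the 15 (-0.75 ± 0.026). It was the 1 regulator lower by the 1.5-fold rule, and 7 were higher. Of all genes, 16.2% were lower and 13.5% higher by that rule.

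**Figure D5:**
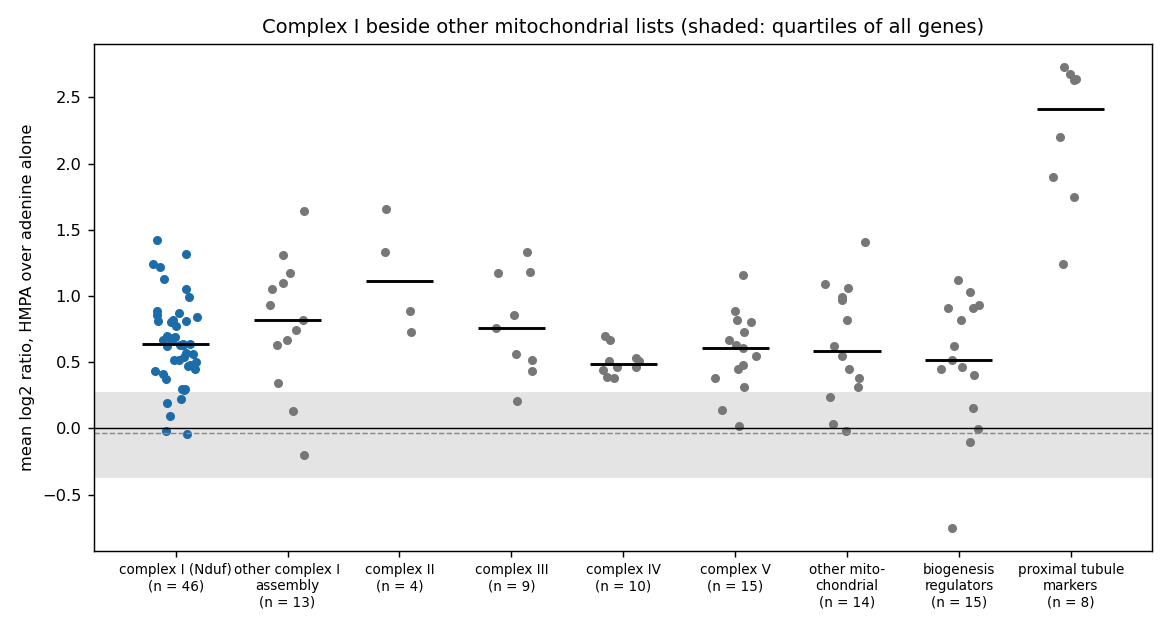
Mean log2 ratio of HMPA over adenine alone for each measured gene (points) of complex I (blue) and of other lists (grey), with black bars for list medians, the shaded band for the quartiles of all 16698 genes and the dashed line for their median. The complex I median of 0.63 lies near those of complexes III to V (0.49 to 0.76), other mitochondrial genes (0.58) and regulators (0.52). It lies below those of the other assembly genes (0.82) and complex II (1.11), and far below that of the proximal tubule markers (2.41).

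Markers of several renal and infiltrating cell types differed by more than the complex I genes did. By the 2-fold rule, used for all marker counts here, 6.64% of all genes were higher and 7.72% lower. All 8 proximal tubule markers met it as higher (median 2.41, range 1.24 to 2.73). Their summed intensity was 178453 and 164770.5 with HMPA, against 24255 and 36595 with adenine alone. The corresponding sums over the 46 complex I genes were 517514 and 479316 with HMPA, against 309091 and 364264 with adenine alone. All 7 macrophage markers were lower (median -2.05), with sums of 11662 and 10092 with HMPA and 72849 and 71414 with adenine alone. All 6 fibroblast markers were lower (median -2.34), with sums of 18024 and 14215 with HMPA and 108159 and 97060.2 with adenine alone. Among markers of the thick ascending limb and distal tubule 3 of 7 were higher and 0 lower (median 0.90), with sums of 58398 and 63684 with HMPA and 42279.5 and 47338 with adenine alone. Among markers of the collecting duct 4 of 6 measured were higher and 0 lower (median 1.42), with sums of 10568 and 9994 with HMPA and 2444 and 2616 with adenine alone. The 5 podocyte markers had a median of -0.095, with 0 higher and 1 lower, and sums of 936 and 909.9 with HMPA and 1359 and 1399.5 with adenine alone. The 6 endothelial markers had a median of -0.19, with 0 either way, and sums of 7345 and 7288 with HMPA and 9099 and 8906 with adenine alone. The 4 measured lymphocyte markers had a median of -0.26, with 0 past the 2-fold rule, and sums of 418 and 431 with HMPA and 594 and 604 with adenine alone. Of 3 measured adipocyte markers 2 were lower (median -2.18), with sums of 480.4 and 455 with HMPA and 9014 and 8974 with adenine alone. Single bright probes can make up most of such a sum. With adenine alone, Lyz2 gave 58839 and 57627 of the macrophage sums, and Cfd 8376 and 8404 of the adipocyte sums. Of the marker genes Foxi1, Cd79a and Lep were not well above background, and Plin1 was not so in all 4 channels. The part of these cell types in the complex I result was not tested, and in whole tissue fewer cells of a type and less RNA per cell cannot be told apart.

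Promoter sequences from RefSeq (GRCm38.p6), 250 bases before to 50 after each gene's start, were matched by symbol for 40 of the 46 genes and searched on both strands for motifs of factors known to act on respiratory genes. The NRF1 motif GCGCANGCG was found in 10 of 40 (25%), against 7.03% of 27025 genes. These 27025 are all genes with a promoter sequence, whether or not measured on the arrays. A gene with several listed starts counts if any of them has a match. The YY1 motif AAGATGGCG was found in 5 of 40 (12.5%), against 1.64%, and the ETS/GABP motif CCGGAAGT in Ndufs3 alone (2.5%, against 4.31%). The ERRA motif TCAAGGTCA was found in 0 of 40, against 0.466%, which says only that these letters are not in these windows. The median ratio was 0.66 for the 10 genes with the NRF1 motif and 0.63 for those without. Stretches before the start are shown for 4 of the 10 genes to display how matches are placed, with each match in capitals. Where GCGCATGCGC occurs the site reads the same on both strands and is matched on each, so that overlapping matches count as 2.
Ndufb4, chr16:37654382-37654584, minus strand: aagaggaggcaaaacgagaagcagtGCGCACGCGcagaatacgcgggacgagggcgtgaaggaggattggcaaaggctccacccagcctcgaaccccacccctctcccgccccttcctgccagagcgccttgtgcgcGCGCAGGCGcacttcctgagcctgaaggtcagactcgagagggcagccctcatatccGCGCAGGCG
Ndufa8, chr2:36049339-36049438, minus strand: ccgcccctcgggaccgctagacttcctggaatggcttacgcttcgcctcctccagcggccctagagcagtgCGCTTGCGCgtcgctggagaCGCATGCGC
Ndufa11, chr17:56717662-56717761, plus strand: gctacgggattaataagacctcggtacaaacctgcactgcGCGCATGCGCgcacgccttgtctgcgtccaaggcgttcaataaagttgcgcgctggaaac
Ndufaf4, chr4:24897945-24898044, plus strand: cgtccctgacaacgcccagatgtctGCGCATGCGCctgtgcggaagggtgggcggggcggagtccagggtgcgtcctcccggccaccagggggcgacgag

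The Ndufb4 promoter held 3 matches, and the gene's ratio was 0.84 ± 0.11. The other genes with an NRF1 match were Ndufa5, Ndufa6, Ndufaf5, Ndufb10, Ndufs5 and Ndufs6, and ratios over all 10 ran between 0.19 and 0.84. The 5 genes with a YY1 match were Ndufa9, Ndufc1, Ndufs4, Ndufs6 and Ndufs7, with ratios between 0.41 and 0.81, and Ndufs6 held both motifs. A match describes the letters in the window and does not show binding.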

How the data were processed

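Kidney RNA was measured on 2 dual-colour arrays per the labels, 1 RNA sample per condition with dyes swapped. The authors quantified the scans with Agilent Feature Extraction 12.2.0.7 per the file headers, against 9.5 per the submitters' processing notes. The deposited signal and background columns are intensity values without normalization, per the file headers. The deposited log10 ratio of red over green was background-subtracted and dye-normalised by the authors' software, per the file headers. The value table holds that log10 ratio to within 0.00498 and 0.00499 (median 0), not turned for the dye swap.

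From these, limma 3.58.1 in R 4.3.3 corrected background (normexp, offset 50) and normalised by loess within arrays, with control and outlier spots at weight 0. Channel intensities were further scaled between arrays (Aquantile). Python 3.11.15 (numpy 2.4.6, pandas 2.3.3, matplotlib 3.10.9) did the rest. Of 41174 probes, 25138 were kept because on both arrays at least 1 condition, the same one, was well above background, and each gene took its brightest kept probe. The procedure was tested on simulated data in which few probes differed, as many higher as lower. That test used loess only, so it does not bear on the choice between loess and median centring. Each array had 43379 gene spots, 281 and 297 of them outliers and none saturated. Well above background were 57.9% and 61.2% of spots for HMPA and 60.9% and 67.9% for adenine alone.

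Genes named with values were the 7 core subunits, the 8 highest and 8 lowest, those meeting the 2-fold rule, those with probes of unlike sign, and Ndufa4. From other lists up to 4 meeting the rule were named, and otherwise up to 3 by size; a few more were named after their values were seen, and 1 gene is not reported here. The genes, lists and rules were chosen with earlier results of these data known. Alternatives changed the normalisation, ratio, background correction, probe rule, filter and arrays.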

Additional observations from a re-analysis of the deposited data

How the results depend on the processing

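The 46 complex I genes were recomputed under 10 alternatives. The count of genes higher by the 2-fold rule was 3 with median centring in place of loess, when 4.49% of all genes met it. It was 6 to 11 when 1 array was left out, when 7.5% and 6.91% of all genes met it. The rule then asked only for 2-fold on the other array. The cause was not tested. With the other alternatives it was 5 to 8, the largest with Feature Extraction's ratios, when more of all genes met the rule too. The count lower was 0 in each of the 10. With the processing used above, 7.72% of all genes were lower by the 2-fold rule. The complex I median was between 0.52 and 0.78. The 1.5-fold count was between 18 (median centring, 7.8% of all genes) and 33 (Feature Extraction's ratios, 22.5%). It did not follow the share of all genes throughout. On array 2 alone it was 21 (15.2% of all genes) and on array 1 alone 30 (14.1%), against 24 (13.5%) with both. For complexes II to V the median was 0.80 with Feature Extraction's ratios and 0.53 to 0.82 when 1 array was left out. Under the 4 alternatives of normalisation, ratio or background correction, 49 of 184 single-gene values moved by more than the standard deviation of the 2 arrays. None of them moved by over 1.5-fold. This standard deviation is larger than the distance given as ± above. The other alternatives could change few single-gene values by more than that standard deviation by construction. No paired analysis was possible because the labels name no separate animals to pair; each ratio is already a difference within 1 array. The number of arrays limits precision: no spread between animals was available, and dim probes such as that of Ndufb11b lie close to the offset.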
